A study of Mus musculus with 14 samples.

Results

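Mammals make 6 conventional actins from 6 genes, and peaks at these genes were followed through 10 lists of ChIP-seq peaks from C2C12 cells, an immortalised mouse myoblast line that fuses into myotubes in low serum. A peak was taken where the deposited annotation names Acta1, Actc1, Acta2, Actg2, Actb or Actg1 as the gene with the nearest transcription start. This gave 70 of 517058 peaks, 60 at the 4 muscle actins and 10 at the 2 cytoplasmic actins, and each of the 6 genes had at least 1.

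The series asked whether Myolinc, a long noncoding RNA, is needed for the protein TDP-43 to occupy genes expressed in muscle. All cells were C2C12 on day 2 of differentiation. The control group has 6 libraries with a peak list, namely 3 for TDP-43 and 1 each for MyoD, Myogenin and RNA polymerase II phosphorylated on serine 2 (Pol II S2P). The siMyolinc group has 1 library for each of the 4 antibodies, from cells transfected with siRNA at 10 nM. Whether control cells received a control siRNA is not given in the sources used here. Another 4 of the 14 samples are input or IgG libraries, which enter here only through the authors' comparison of each antibody with IgG. Only the TDP-43 control group is replicated, and nothing in the labels says whether its 3 libraries came from separate cultures. Peak lists hold no RNA level, so neither the loss of Myolinc nor the muscle identity of the cells could be checked in them.

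Actins polymerise into the thin filaments of the sarcomere and the filaments of the cytoskeleton. Acta1 encodes the skeletal muscle form, Actc1 the cardiac form that is also made by differentiating myoblasts, Acta2 the aortic smooth muscle form, Actg2 the enteric smooth muscle form, and Actb and Actg1 the beta and gamma forms present in nearly every cell. In muscle, serum response factor drives many actin promoters through the CArG box, and the myogenic factors MyoD and Myogenin bind E-boxes. TDP-43 is a nuclear protein that binds RNA and DNA rich in TG repeats, and serine 2 phosphorylation marks the elongating polymerase.

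The sequences just upstream of the actin starts show which of these motifs each promoter holds. RefSeq promoter windows of build GRCm38.p6, a patch release of the mm10 assembly, were matched for 4 of the 6 genes. The 250 bases before the start of Acta1 (chr8:123894776-123895025), Actc1 (chr2:114052876-114053125), Acta2 (chr19:34255374-34255623) and Actg1 (chr11:120348496-120348745), all on the minus strand, are printed 5′ to 3′ with CArG boxes and E-boxes in capitals. The Acta2 window precedes the start that the peak files also use, and 212 of its bases lie inside the RefSeq gene span, which ends at 34255585. For Actc1 and Actg1 the peak files place the start at 114052811 and 120348484, inside the RefSeq span, while the windows precede the RefSeq start.

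Acta1: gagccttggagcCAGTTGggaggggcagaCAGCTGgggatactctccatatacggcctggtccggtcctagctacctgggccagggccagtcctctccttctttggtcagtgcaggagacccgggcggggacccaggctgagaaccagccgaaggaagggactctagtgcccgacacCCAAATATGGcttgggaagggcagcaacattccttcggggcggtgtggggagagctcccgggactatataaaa

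Actc1: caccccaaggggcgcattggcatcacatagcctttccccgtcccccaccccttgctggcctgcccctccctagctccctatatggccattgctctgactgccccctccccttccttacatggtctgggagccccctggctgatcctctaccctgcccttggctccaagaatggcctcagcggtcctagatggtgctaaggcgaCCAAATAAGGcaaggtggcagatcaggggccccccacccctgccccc

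Acta2: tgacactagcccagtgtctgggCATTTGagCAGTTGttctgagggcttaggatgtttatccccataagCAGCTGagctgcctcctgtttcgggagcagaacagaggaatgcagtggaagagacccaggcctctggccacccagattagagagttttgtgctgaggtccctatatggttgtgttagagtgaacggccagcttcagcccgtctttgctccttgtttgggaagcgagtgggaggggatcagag

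Actg1: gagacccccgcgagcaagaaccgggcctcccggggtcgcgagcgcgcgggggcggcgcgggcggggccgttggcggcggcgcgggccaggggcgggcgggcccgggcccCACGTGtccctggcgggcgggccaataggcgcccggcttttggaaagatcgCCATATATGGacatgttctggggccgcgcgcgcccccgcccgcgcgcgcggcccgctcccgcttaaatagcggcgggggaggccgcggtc

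A CArG box stood 73 to 64 bases before the Acta1 start, 47 to 38 before that of Actc1 and 90 to 81 before that of Actg1. The strict CArG box, CCWWWWWWGG with W for A or T, was found in 1.47% of 32851 RefSeq windows of the same length. No strict match was found in the Acta2 window. Sequences 1 base off the pattern, such as ccctatatgg and ccttgtttgg in that window and ccctatatgg in Actc1, were neither counted nor printed in capitals. E-boxes, searched as CANNTG, were 2 in Acta1, 3 in Acta2, 1 in Actg1 and 0 in Actc1, and 66.2% of all windows held at least 1. Both motifs read the same on either strand, and no 2 matches overlapped. A TG repeat, searched as TGTGTG on both strands, was in 17.9% of all windows and in none of these 4. Such matches describe letters only and say nothing about which protein sat there. Of the 70 actin peaks only 1 reached into any of the 4 printed windows, and it came from Pol II S2P after siMyolinc at Acta1, spanning 262 to 44 bases before the start and so covering the CArG box and both E-boxes.

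The lists differ in size and in shape before any gene is considered. They hold 29703, 10571 and 8162 peaks for TDP-43 control replicates 1 to 3 and 24964 for TDP-43 siMyolinc. MyoD has 71884 in control and 109541 in siMyolinc, Myogenin 115000 and 20453, and Pol II S2P 10716 and 116064. The authors' peak score was a whole multiple of 1 step in every list, so each score could be read as a number of sequenced tags. If the scores were scaled to 10000000 tags, which no source used here states, the libraries held from 962382 to 1455038 tags for the TDP-43 and Pol II S2P controls and from 3040129 to 3774956 for the other 6. The median peak was 75 bp wide in the siMyolinc MyoD and Myogenin lists and 217 to 249 bp in the other 8, and the median peak of the siMyolinc Myogenin list held 137 tags against 6 to 24 elsewhere. With 1 siMyolinc library for each antibody, a difference between conditions cannot be told apart from a difference between libraries.

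The skeletal muscle gene Acta1 was the most widely marked of the 6, with 25 peaks in 9 lists. Acta2 had 22 peaks in 5 lists, Actg2 9 in 4, Actb 9 in 4, Actc1 4 in 3 and Actg1 1 in 1. The number of peaks that can be named for a gene depends on how far away the neighbouring starts lie. The stretch nearer to the gene's own start than to any other was 44.5 kb for Acta1, 49.2 kb for Acta2, 32.6 kb for Actb, 30.5 kb for Actg2, 20.4 kb for Actc1 and 0.632 kb for Actg1, against a median of 46.9 kb over 19594 protein-coding genes. Per 100 kb of that stretch, summed over the 10 lists, Acta1 had 56.1 peaks (36.3 to 82.9, exact Poisson 95% interval), Acta2 44.7 (28.0 to 67.7), Actg2 29.5 (13.5 to 56.0), Actb 27.6 (12.6 to 52.5) and Actc1 19.6 (5.35 to 50.2). In that order no gene differed from its neighbour beyond these intervals, which cover counting error only. The single peak of Actg1 gives no usable density, since its stretch is so short.

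**Figure D1:**
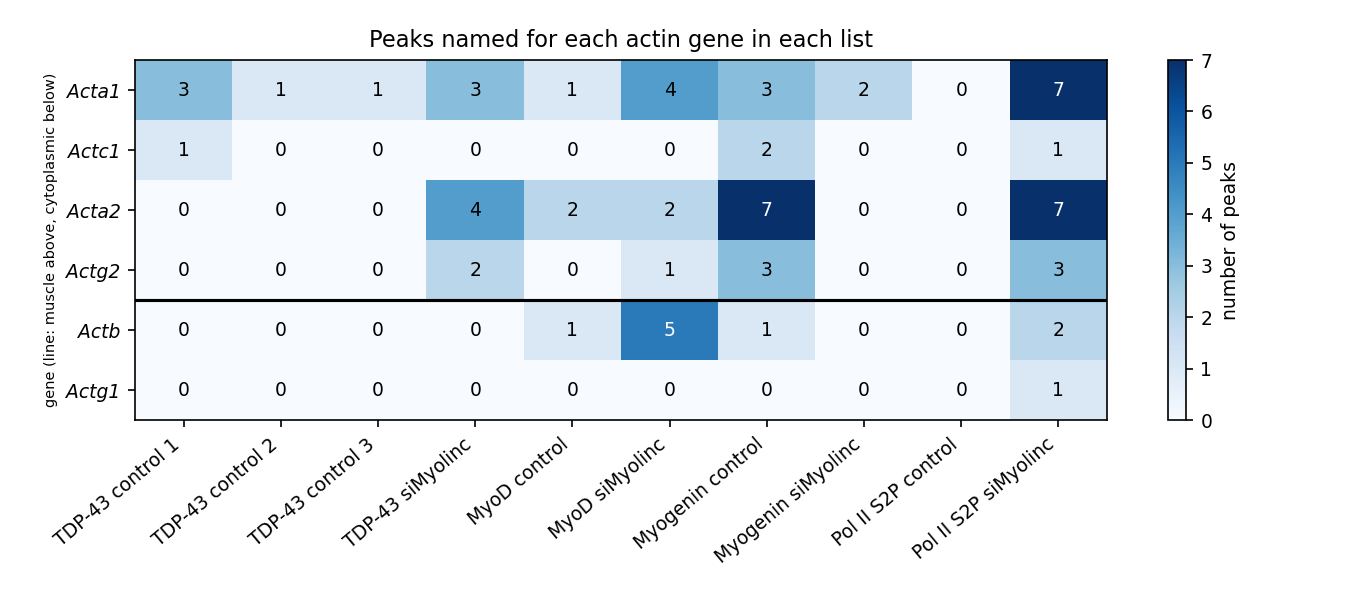
Number of peaks named for each actin gene (rows; muscle actins above the line, cytoplasmic below) in each of the 10 lists (columns), with darker blue for more peaks. Acta1 has a peak in every list but the Pol II S2P control, while Actb and Actg1 have none in any of the 4 TDP-43 lists.

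Acta1 lies on chromosome 8 at 123891758 to 123894775 of GRCm38, minus strand, and its promoter faces the 3′ end of Nup133, a nuclear pore gene. Its peaks numbered 3, 1 and 1 in TDP-43 control replicates 1 to 3 and 3 in TDP-43 siMyolinc. MyoD gave 1 in control and 4 in siMyolinc, Myogenin 3 and 2, and Pol II S2P 0 and 7. Of the 25 peaks, 9 lay over the RefSeq gene itself, 12 in introns of Nup133, 2 in the promoter class upstream of the start and 2 between genes. The 9 peaks over the gene came from 7 of the 10 lists and from all 4 antibodies, and 8 of them were annotated to an exon or the 3′ UTR and 1 to intron 1. Among protein-coding genes 21.4% had a peak over their span in 7 or more lists, and among the 5047 no longer than 5 kb, to which Acta1 with its 3018 bp belongs, 0.773% did. This count was made after the Acta1 peaks had been seen.

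The TDP-43 peaks over Acta1 itself lay on exons or in the 3′ UTR, and none was in the promoter class. A promoter-class peak was rare in general, at 5.09% of protein-coding genes or fewer in each TDP-43 list. In control replicate 1 a peak of 12 tags (6.2 to 21.0, exact Poisson 95% interval) lay on exon 5 of 7 at chr8:123892456-123892704, and another of 12 tags lay in the 3′ UTR of exon 7 at chr8:123891883-123892131. In control replicate 2 the only actin peak of the list, 10 tags (4.8 to 18.4), lay on exon 4 at chr8:123892742-123892960. Control replicate 3 had no peak over the gene, and its only actin peak, 7 tags, lay 9073 bp upstream in intron 24 of Nup133, where it shared 216 bp with a peak of 11 tags in replicate 1. That shared site is annotated as an RMER1A repeat. After siMyolinc a peak of 6 tags lay on exon 3 at chr8:123893185-123893401, one of 7 tags in the same Nup133 intron 8560 bp upstream, and one of 10 tags 13648 bp downstream of the start between genes. None of the 9 siMyolinc TDP-43 peaks at actin genes overlapped a control TDP-43 peak, and over the whole siMyolinc list 9.12% did, so an absence among 9 says little about the actins. An own exon or UTR peak in at least 2 of the 3 control lists, as at Acta1, was found for 7.01% of protein-coding genes, a rule also chosen after the values were seen. Exon and UTR peaks made up 21.8%, 27.5% and 29.0% of the 3 control TDP-43 lists and 8.7% of the siMyolinc list.

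The same 3′ part of Acta1 held peaks of the myogenic factors. Myogenin in control cells had a peak of 12 tags on exon 5, at or above 29.1% of its list. It shared 101 bp with the TDP-43 peak of replicate 1 and 81 bp with that of replicate 2. After siMyolinc, Myogenin had a peak of 151 tags (128.0 to 177.0) on exon 7 and MyoD one of 14 tags in the 3′ UTR, and each lay with all its 75 bp inside the exon 7 peak of TDP-43 control replicate 1. The 151 tags were an ordinary value in the siMyolinc Myogenin list, where 56.5% of peaks scored the same or less. The 14 tags of MyoD were a low value, at or above 18.9% of the siMyolinc MyoD list. MyoD after siMyolinc also had the one intron peak, 37 tags (26.1 to 51.0) in intron 1 at 524 bp from the start, at or above 85.7% of its list. The MyoD control list had no peak over Acta1, and its only Acta1 peak, 9 tags, was 6562 bp upstream in Nup133.

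For Pol II S2P the control list had no peak named for Acta1. The siMyolinc list had 7, of which 32 tags (21.9 to 45.2) on exon 2 at chr8:123893499-123893717 was the highest at any actin gene in that list, at or above 99.7% of all its peaks. Peaks of 11 and 9 tags lay in the promoter class 153 and 773 bp upstream of the start, and these 2 and the exon 2 peak were the Pol II S2P peaks annotated to Acta1 itself.

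**Figure D2:**
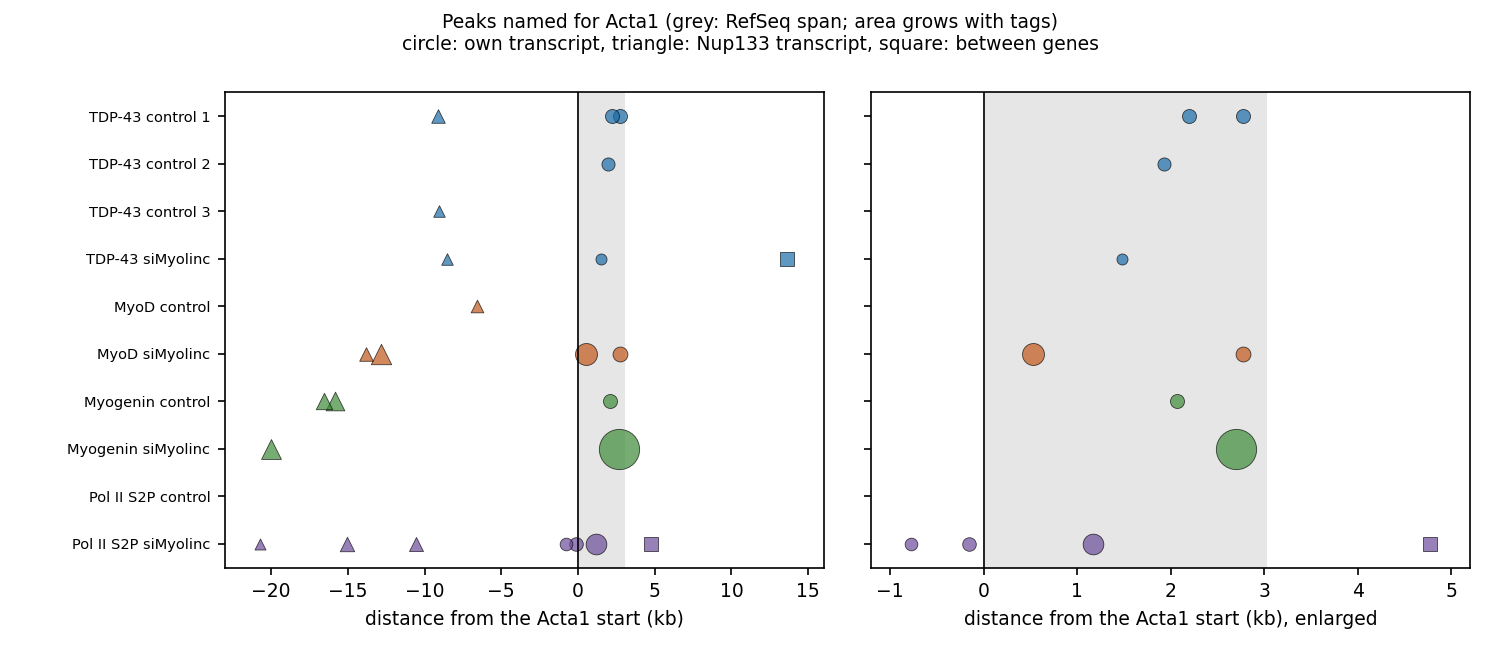
Peaks named for Acta1 by distance from its start in kb (x axis; left the whole stretch, right enlarged) and by list (y axis), with marker area growing with the tags in the peak, circles for peaks annotated to Acta1 itself, triangles for Nup133 introns and squares for peaks between genes. TDP-43 peaks in control replicates 1 and 2 sit in the 3′ part of the grey RefSeq span, and both peaks just upstream of the start come from Pol II S2P after siMyolinc.

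Actc1, the cardiac form, had few peaks and its start is crowded by the noncoding gene C130080G10Rik, which begins 1585 bp away. TDP-43 control replicate 1 had a peak of 10 tags (4.8 to 18.4) on exon 2 of 7 at chr2:114051850-114052098, and replicates 2 and 3 and the siMyolinc TDP-43 list had none. Myogenin in control cells had a promoter-class peak of 9 tags 81 bp past the start and one of 26 tags 18094 bp past it between genes, while the siMyolinc Myogenin list had none. The promoter-class peak was a weak one, at or above 12.4% of its list. It lay at chr2:114052621-114052839, inside the RefSeq span and not over the printed window, which precedes the RefSeq start at 114052875. The 81 bp are counted from the start in the peak files, 114052811, which this peak spans. Pol II S2P had no peak in control and 1 of 12 tags in intron 2 after siMyolinc, which shared 47 bp with the exon 2 peak of TDP-43. MyoD had no peak named for Actc1 in either condition. A further 2 peaks within 10 kb of the Actc1 start, 1 of Myogenin in control cells and 1 of Pol II S2P after siMyolinc, were named for C130080G10Rik.

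Acta2, the aortic smooth muscle form, is expressed in myoblasts early in differentiation and lies between Stambpl1 and the death receptor gene Fas. Its 22 peaks were split between its own transcript (8, of which 7 in introns), introns or an exon of Stambpl1 (7) and the space between genes (7). TDP-43 gave 0, 0 and 0 in the control replicates and 4 in siMyolinc, MyoD 2 and 2, Myogenin 7 and 0, and Pol II S2P 0 and 7, control before siMyolinc. The 4 TDP-43 peaks after siMyolinc held 6 to 9 tags, and 2 of them were in introns 7 and 1 of Acta2. Myogenin in control cells had peaks of 21 and 29 tags at 7082 and 8791 bp upstream of the start, the second at or above 96.8% of its list. MyoD in control cells had a peak of 14 tags in the same interval, 7783 bp upstream and at or above 94.6% of its list, and it overlapped neither of them. Pol II S2P after siMyolinc had 4 peaks of 12 to 15 tags along the gene, 3 in introns and 1 on exon 2, and 1 of these shared 127 bp with a MyoD control peak in intron 6.

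Actg2, the enteric form, lies on chromosome 6, and 8 of its 9 peaks were in its own transcript. TDP-43 gave 0, 0 and 0 in the control replicates and 2 in siMyolinc, with 9 tags on exon 2 and 8 tags in intron 1. Myogenin had 3 peaks of 8 to 12 tags in control and none in siMyolinc, all in introns, at or above 7.95% to 29.1% of its list. MyoD had none in control and 1 of 15 tags after siMyolinc, and Pol II S2P none in control and 3 of 10 to 19 tags after siMyolinc.

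At Actb, which encodes beta-actin, no peak lay in the gene. All 9 were upstream, between Actb and the actin-bundling gene Fscn1, at 3020 to 25595 bp from the start. MyoD had 1 peak in control, 10 tags at 21515 bp upstream, and 5 after siMyolinc with 8 to 25 tags. Myogenin had 1 in control, 12 tags, and none after siMyolinc. Pol II S2P had none in control and 2 after siMyolinc, of 15 and 11 tags. TDP-43 had none in any of its 4 lists.

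Actg1, which encodes gamma-actin, had 1 peak, from Pol II S2P after siMyolinc, with 10 tags 389 bp past its start, and the annotation placed it in the promoter class of the transcript of 0610009L18Rik. That gene begins 194 bp from the Actg1 start and the microRNA gene Mir6935 1071 bp from it, so nearby peaks take their names. Within 10 kb of the Actg1 start another 8 peaks were named for Mir6935, 0610009L18Rik or Fscn2: 1 of MyoD in control cells, and 3 of MyoD, 1 of Myogenin and 3 of Pol II S2P after siMyolinc. Of the MyoD siMyolinc peaks 1, of 19 tags and named for Mir6935, was annotated to the end of the Actg1 transcript. None of the 8 came from TDP-43.

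**Figure D3:**
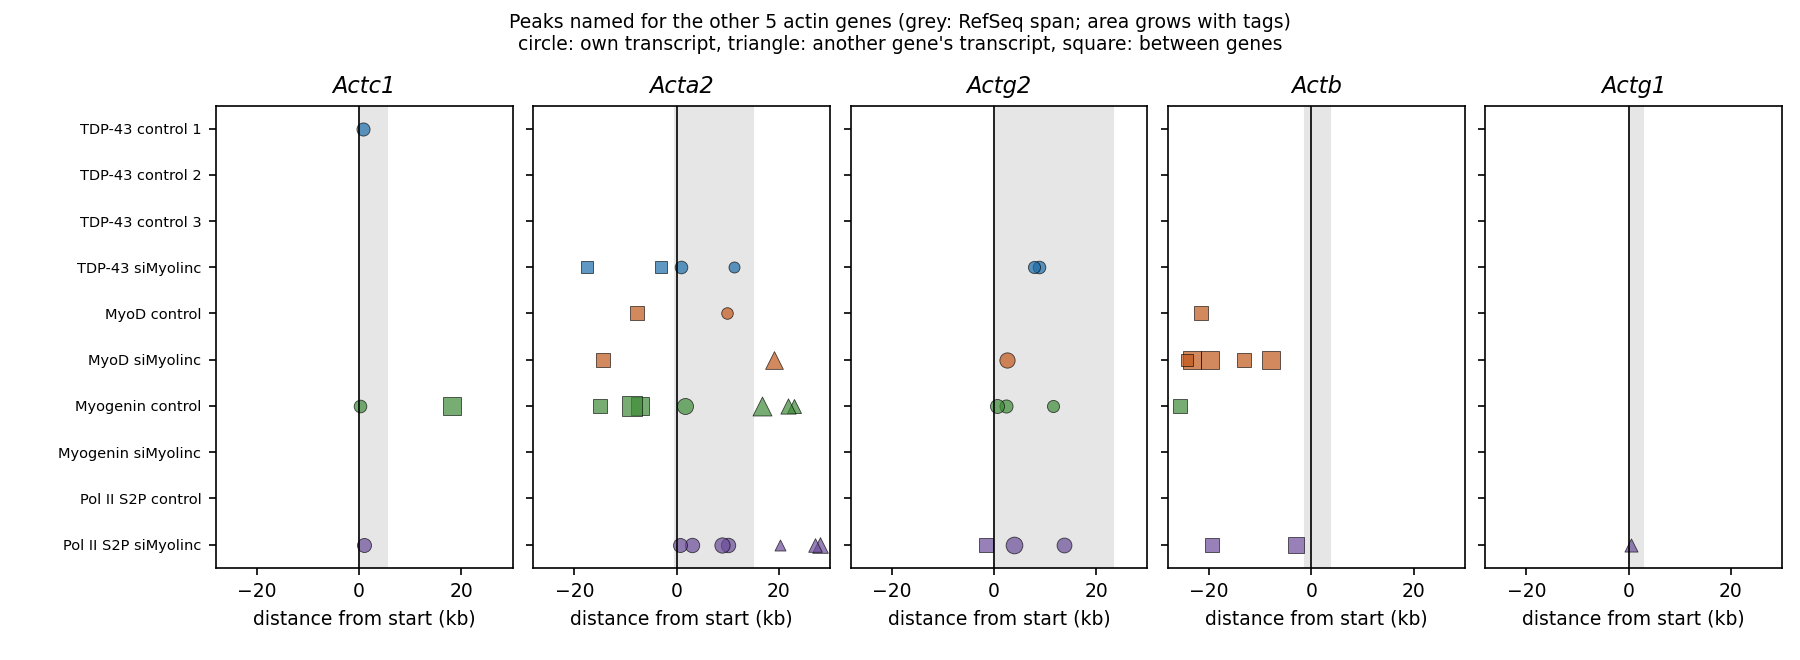
Peaks named for the other 5 actin genes by distance from the start in kb (x axis) and by list (y axis), with marker area growing with tags, circles for the gene's own transcript, triangles for another gene's transcript and squares for peaks between genes. Peaks of Actg2 fall inside the grey RefSeq span except 1, and those of Actb all lie upstream of the gene.

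Muscle and cytoplasmic actins were compared by where their peaks lay. Of the 60 muscle actin peaks, 30 were annotated to the gene's own transcript with its promoter (50.0%, Wilson 95% interval 37.7% to 62.3%), 19 to the transcript of another gene and 11 to the space between genes. Of the 10 cytoplasmic peaks, 0 were annotated to the gene's own transcript (upper limit 27.8%), 1 to another gene and 9 to the space between genes, while the MyoD peak at the end of Actg1 that is named for Mir6935 is outside this count. By position alone the Actg1 peak lay inside the RefSeq span of Actg1, so that 1 of 10 cytoplasmic peaks (10.0%, 1.79% to 40.4%) and 28 of 60 muscle peaks (46.7%, 34.6% to 59.1%) lay over the span of the named gene, and these intervals overlap. By annotation class the muscle peaks were 34 in introns, 11 intergenic, 10 in exons, 3 in the promoter class and 2 in 3′ UTRs. Over all peaks of the 10 lists with a named gene 32.4% lay in a transcript of the named gene and 50.3% were intergenic. Repeats held 18 of the muscle peaks (30.0%), 4 of the cytoplasmic peaks (40.0%) and 36.2% of all peaks. These intervals cover counting error only, and the 9 Actb peaks share 1 locus. The comparison does not allow for gene length. RefSeq spans were 15250 bp for Acta2 and 23343 bp for Actg2. They were 3018 bp for Acta1, 5594 bp for Actc1, 4862 bp for Actb and 2809 bp for Actg1.

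Peak density did not differ between the sets beyond counting error. Per 100 kb nearest to their starts, over all 10 lists, muscle actins had 41.5 peaks (31.7 to 53.4), cytoplasmic actins 30.1 (14.4 to 55.4) and all peaks 19.0. The ratio of muscle to cytoplasmic was 1.38 with an interval of 0.699 to 3.02, which includes equal density. It was 2.83 within 10 kb of the start (37 against 3 peaks) and 2.29 among peaks scoring at least the median of their list. By antibody the set with the higher density varied, on few peaks and without intervals. TDP-43 peaks per 100 kb at muscle actins were 2.77, 0.691 and 0.691 in the controls and 6.22 in siMyolinc. At cytoplasmic actins they were 0 in all 4 lists, where a single peak would have been 3.01. All peaks of these lists gave 1.09, 0.388, 0.3 and 0.917, so the lists are too sparse for 0 to set the cytoplasmic actins apart. MyoD gave 2.07 at muscle and 3.01 at cytoplasmic actins in control and 4.84 and 15.1 in siMyolinc. Myogenin in control gave 10.4 and 3.01, and Pol II S2P in siMyolinc 12.4 and 9.04.

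**Figure D4:**
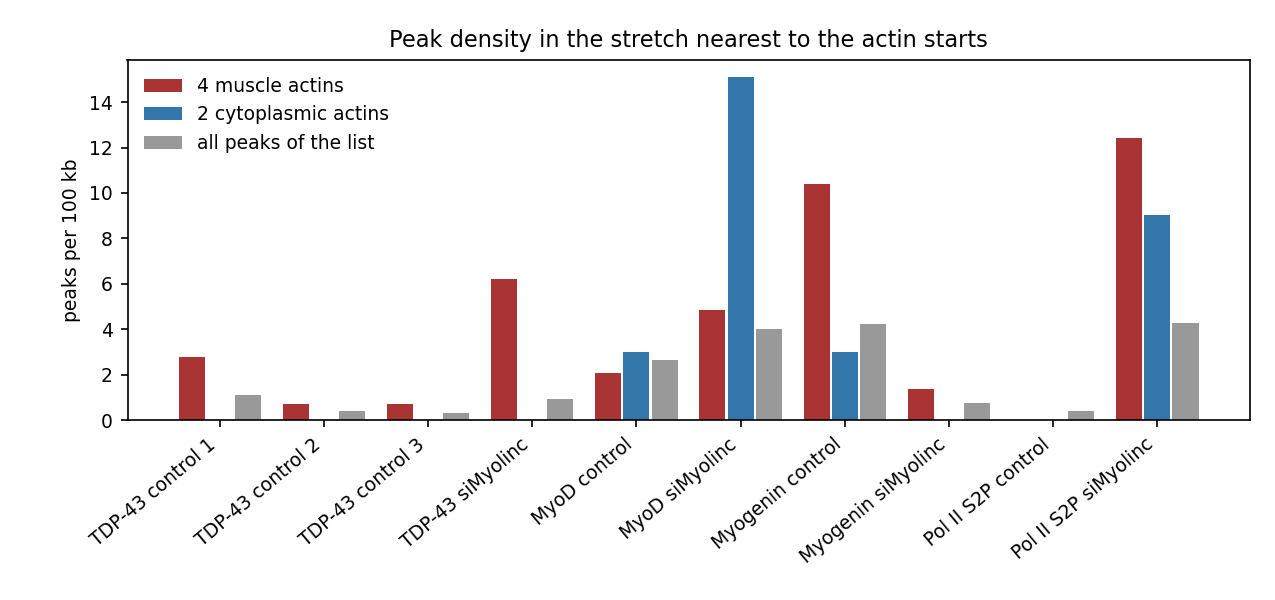
Peaks per 100 kb (y axis, from 0) in the stretches nearest to the starts of the 4 muscle actins and the 2 cytoplasmic actins, and over all peaks, in each list (x axis). Bars at 0 for cytoplasmic actins stand for no peak, and in the MyoD siMyolinc list the cytoplasmic bar, 15.1, is the highest of all and rests on 5 peaks at Actb.

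The number of actins with a peak was set against the share of all 21900 protein-coding genes with one. Genes with any named peak made up 49.3%, 26.8%, 22.3% and 45.1% in the TDP-43 lists (control replicates 1 to 3, then siMyolinc), where 2, 1, 1 and 3 of the 6 actins had one, all of them muscle actins. They made up 64.9% and 75.6% for MyoD in control and siMyolinc, where 3 and 4 actins had one. The shares were 73.2% and 39.7% for Myogenin with 5 and 1 actins, and 26.8% and 77.0% for Pol II S2P with 0 and 6. Of these, Actb was called in both MyoD lists, the Myogenin control list and the Pol II S2P siMyolinc list, and Actg1 in that last list alone. Within 10 kb of the start the TDP-43 background was 28.4%, 13.1%, 10.4% and 21.1% with 2, 1, 1 and 3 actins. For MyoD it was 39.6% and 56.2% with 2 and 3 actins, for Myogenin 52.1% and 17.3% with 4 and 1, and for Pol II S2P 12.1% and 58.7% with 0 and 6. The counts farthest above their background within 10 kb were those of TDP-43 and Pol II S2P after siMyolinc, and with 6 genes each count moves by 1 gene at a time.

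Promoter-class peaks were found at actins in 3 of 60 combinations of gene and list (5.0%), near the mean of 4.59% over all protein-coding genes. No TDP-43 list had one, where the background was 5.09%, 2.12%, 1.65% and 2.49% in the same order. MyoD had none in either condition, with backgrounds of 4.01% and 11.2%. Myogenin had 1 of 6 actins, Actc1, in control, with a background of 6.46%, and 0 in siMyolinc, with 2.46%. Pol II S2P had 0 in control, with 1.55%, and 2 in siMyolinc, Acta1 and Actg1, with 8.89%.

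Turning to the effect of Myolinc knockdown on TDP-43, the siMyolinc list held more actin peaks than any of the control lists. Per 10000 peaks of the list, actin peaks numbered 1.35, 0.946 and 1.23 in the control replicates (1.17 ± 0.205, SD, n = 3) and 3.61 in siMyolinc (1.65 to 6.84, exact Poisson), 3.07 times the control mean. The control values rest on 4, 1 and 1 peaks. Their exact Poisson intervals, 0.367 to 3.45, 0.024 to 5.27 and 0.031 to 6.83, all overlap that of siMyolinc. No interval was computed for the ratio of 3.07. Acta1 stood at 1.06 ± 0.146 per 10000 in control and 1.2 in siMyolinc (two-sided exact permutation test, p = 0.75). Actc1 stood at 0.112 ± 0.194 in control and 0 in siMyolinc (exact permutation p = 1.0). Acta2 went from 0 in each control to 1.6 and Actg2 from 0 to 0.801 (exact permutation p = 0.25 for each). With 3 libraries against 1 the smallest p the test can give is 0.25, so no gene could pass, and the direction is a description of these 4 libraries.

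By gene, Acta1 had a TDP-43 peak within 10 kb in all 3 control lists, as did 4.86% of protein-coding genes, and in the siMyolinc list as well, as did 2.11%. Acta2 and Actg2 had one after siMyolinc but in none of the controls, as did 10.1% of genes. Actc1 had one in a control and not in siMyolinc, as did 22.6%. The siMyolinc library was the deepest of the 4, with 3253044 tags on the scaling above against 962382 to 1394416, and its actin peaks held only 6 to 10 tags. To match the lowest tag number called in control replicates 1, 2 and 3, a siMyolinc peak would need 10, 12 and 11 tags. Of the 9 siMyolinc actin peaks 1, at Acta1, reached 10 tags and 0 reached 11. At 12 tags 4.27% of all peaks of that list were kept, so the loss of the actin peaks is not particular to them. This setting was chosen after seeing the data, matches only the lowest tag number, and leaves the control lists whole.

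**Figure D5:**
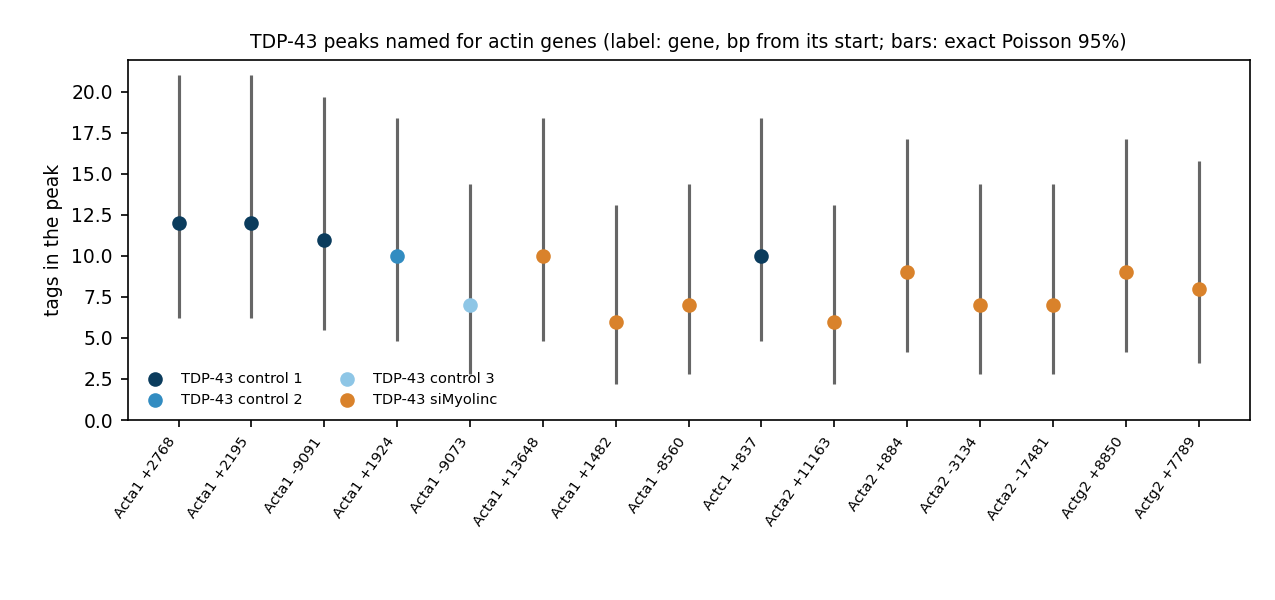
Tags in each of the 15 TDP-43 peaks named for actin genes (y axis; x axis gives the gene and the distance in bp from its start), with exact Poisson 95% intervals as bars and colour for the library. The 9 siMyolinc peaks hold 6 to 10 tags and the 6 control peaks 7 to 12, with intervals that overlap. These tags are raw numbers, not scaled for the greater depth of the siMyolinc library. The deposited scores of the same peaks did not overlap, at 18.4 to 30.7 in siMyolinc and 71.7 to 92.0 in control. This difference was not tested.

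For MyoD, actin peaks per 10000 were 0.556 in control and 1.1 in siMyolinc, a ratio of 1.97 with a counting interval of 0.597 to 8.38. Within 10 kb, Acta1 was called in both lists, as were 26.7% of protein-coding genes. Actg2 and Actb were called in siMyolinc alone, as were 29.5%, and Acta2 in control alone, as were 12.9%. For Myogenin the values were 1.39 in control and 0.978 in siMyolinc, a ratio of 0.703 with an interval of 0.0784 to 2.99. Acta1 was again called in both, as were 10.6% of genes, while Actc1, Acta2 and Actg2 were called in control alone, as were 41.5%. No actin was called in siMyolinc alone, against 6.68%. The MyoD ratio turned to 0.805 among peaks scoring at least the median and to 0.875 within 10 kb of the named start, and the Myogenin ratio to 1.04 without peaks in repeats and to 1.41 within 10 kb by position, so neither direction held. Both ratios have intervals that include 1, and with 1 library a condition neither was tested.

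For Pol II S2P the control list had 0 actin peaks of 10716, which allows up to 2.8 per 10000 (3 counts; the exact Poisson upper limit is 3.44), and the siMyolinc list had 1.81 per 10000 (1.12 to 2.77). The difference per 10000 peaks was therefore not detectable at this depth. All 6 actins had a siMyolinc peak and no control peak within 10 kb, a change seen in 49.3% of protein-coding genes. None was called in control alone (2.75% of genes) or in both (9.37%). At the tag number that matches the control library, 11, the siMyolinc list kept 57.8% of its peaks and 16 of its 21 actin peaks, at 5 of the 6 genes, all but Actg1.

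Some sites were shared between lists. Of the 70 peaks, 12 overlapped a peak of another list by at least 1 bp, in 7 pairs, and 6 of these 12 lay in Acta1 itself. That is 20.0% of the 60 muscle peaks, against 15.2% of all 517058 peaks. None of the 10 cytoplasmic peaks overlapped one of another list, and so few peaks at these shares do not separate the sets.

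Few genes had the same pattern of lists as Acta1. Counting lists with a peak within 10 kb, 23 protein-coding genes (0.105%) matched its 9 lists exactly, and those closest to its 16 such peaks were Hhipl2 with 15, Pax2 with 17 and Scx with 17. A total of 217 genes (0.991%) had such a peak in 9 or more lists. The pattern of Acta2 was met by 105 genes, with Hey1 and Vps37c (10 peaks each) and Creb5 (9) closest to its 11. That of Actg2 was met by 222 genes (Aldh3a2, Anp32b and Ccdc126 with 7 peaks each) and that of Actc1 by 130 (Aco1, Adad1 and Atrn with 3 each). The pattern of Actb, in 2 lists, was met by 618 genes, 2.82% of all.

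Proteins that load, cut, cap, nucleate or fold actin, and the transcription factors that sense it, were counted from a list of 52 symbols, of which 50 matched. Within 10 kb of their starts, 13, 6 and 2 of the 50 had a TDP-43 peak in control replicates 1 to 3 (26.0%, 12.0% and 4.0%) and 18 (36.0%) in siMyolinc. MyoD gave 26 (52.0%) in control and 34 (68.0%) in siMyolinc, Myogenin 37 (74.0%) and 12 (24.0%), and Pol II S2P 5 (10.0%) and 39 (78.0%). The median partner was called in 4 lists, against 3 for all protein-coding genes. The background was 28.4%, 13.1%, 10.4% and 21.1% for TDP-43, control replicates 1 to 3 before siMyolinc. It was 39.6% and 56.2% for MyoD, 52.1% and 17.3% for Myogenin and 12.1% and 58.7% for Pol II S2P. The partner share was below it in the TDP-43 and Pol II S2P control lists and above it in the other 6. In TDP-43 control replicates 1 and 2 and the Pol II S2P control list the values were close. No interval or test was made for these shares. Srf, which encodes the serum response factor, had a TDP-43 peak in all 3 control lists and none in siMyolinc. Among all protein-coding genes 4.86% had one within 10 kb in all 3 control lists, and 2.11% had one in siMyolinc as well. Srf is 1 of 50 partners, and its pattern was not tested. The filament-severing gelsolin gene Gsn and the formin gene Fhod1 were called in 7 lists each, the most among the partners. The share of all genes called in 7 or more lists is not given here. Setd3, which methylates actin, was called in none.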

How the data were processed

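Peaks from ChIP-seq of day 2 C2C12 cells were used as the authors deposited them, 1 annotated list per library, each compared with IgG. HOMER and mm10 are named, with no version or role, in the submitters' processing notes, and the aligner is not given in the sources used here. The deposited peak score has no stated unit, per the file headers; dividing it by its step gave whole tags (tolerance 0.05) for 100.0% of peaks with the top 1% of scores set aside and for at least 99.64% of all peaks. The deposited focus ratio, a fraction per the file headers, was not used in any result. Start sites came from the deposited distance to the nearest start. The members and lists were chosen with earlier results of these data known. All 6 actins are named; genes of like pattern were those called within 10 kb in exactly the same lists, the 3 closest in peak number, ties alphabetical. TDP-43 was compared by exact permutation; single libraries were given with 95% counting intervals and no test. Tags without molecular identifiers are not independent molecules. Python 3.11.15, pandas 2.3.3 and scipy 1.17.1 were used, and step and start recovery were tested on simulated data.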

Additional observations from a re-analysis of the deposited data

How the results depend on the processing

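Of 35 alternatives, 24 kept the value within its error, 10 moved it and 1 reversed it. The 1 reversal is a difference that changed sign. Ratios that crossed 1 within their wide counting intervals were counted as kept. These were 0.805 and 0.875 for MyoD (main value 1.97) and 1.04 and 1.41 for Myogenin (main value 0.703). TDP-43, MyoD and Myogenin ratios that fell to 0 were counted as moved. The TDP-43 ratio of actin peaks per 10000 peaks, siMyolinc over control, was 3.07; it was 2.02 for the upper-scoring part of each list (median score and higher), 1.8 when all lists were shortened to the same number of peaks, 4.56 without repeats, 2.05 within 10 kb by name and 2.05 by position, 2.8 to 3.32 leaving out each control replicate, and 0 with siMyolinc peaks of at least 12 tags, the number that matches the lowest tag number of a control list. With lists shortened in that way the MyoD and Myogenin ratios both became 0, since no siMyolinc actin peak was left; the other MyoD settings gave 0.805 to 2.53 and the other Myogenin settings 0.774 to 1.41. The difference in the number of actins with a TDP-43 peak within 10 kb, control mean minus siMyolinc, was -1.67; it was -0.667 at 1 kb, -1 with lists of equal length, -2 to -1.5 leaving out each control replicate, and reversed to 1.33 with the 12-tag minimum. That minimum lies above the highest siMyolinc actin peak (10 tags) and keeps 4.27% of the list, so both values follow from the setting and show nothing about the actins. The muscle to cytoplasmic density ratio of 1.38 was 1.28 to 1.35 leaving out each control replicate, 2.29 for the upper-scoring part, 1.61 without repeats, 2.83 and 1.77 within 10 kb by name and by position, and 2.34 without the siMyolinc MyoD and Myogenin lists; with lists of equal length 13 muscle and 0 cytoplasmic peaks gave no ratio. The 12-tag settings and the setting without those 2 lists were chosen after seeing the data. No Pol II S2P ratio was computed, because the control list had 0 actin peaks. No paired analysis was possible because only the TDP-43 control group has replicates.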
